A study of Homo sapiens with 16 samples.

Results

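The matrix, integrin and TGF-beta genes were followed through 16 RNA-seq libraries of 2 lines of human lung cancer cells: 46 genes were taken by name, from a list of matrix, protease, integrin and TGF-beta response genes, out of 56865 genes summed from the transcript tables. CCN1 and CCN2 appeared under their older symbols CYR61 and CTGF. The members were chosen with earlier results of these data known, so their counts beside those of all genes are descriptive. One line was NCI-H1299 (p53Y220C), in which p53 carries the Y220C change that makes the protein fold poorly, and the other was its p53-null parent NCI-H1299, from a non-small cell carcinoma of the lung. They are called p53-Y220C and p53-null cells here. MS78 is a compound made to bring the acetyltransferase EP300 to p53 Y220C, and DMSO was its vehicle. The 4 groups, each of 4 libraries, were Y220C MS78 (p53-Y220C cells given 10 µM MS78 for 24 h), Y220C DMSO (the same cells with vehicle), Null MS78 (p53-null cells given 10 µM MS78 for 24 h) and Null DMSO (p53-null cells with vehicle). The p53-Y220C cells were grown in 500 µg/mL G418 and the p53-null cells without it, so the transgene, the drug selection and other differences between the lines cannot be told apart. The labels do not say whether the p53-Y220C line is 1 clone. They also do not say whether a group's libraries are separate cultures, and p-values then measure only library-to-library spread, which may be technical.

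The extracellular matrix is the mesh of fibronectin, collagens and laminins around cells. Integrins are paired receptors that hold cells to that mesh, matrix metalloproteinases and the urokinase system cut it, and lysyl oxidases crosslink it. TGF-beta is stored in the matrix in a latent form, is released by integrins and proteases, and signals through its receptors and SMAD proteins to genes that include matrix components and its own feedback inhibitors. Matricellular proteins such as CCN1 and CCN2 are secreted signals rather than structural parts, and both are classic targets of the coactivators YAP and TAZ, which act with TEAD factors, as well as of TGF-beta. In carcinoma lines these genes describe the balance between epithelial and mesenchymal states.

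Libraries held 20.3 M to 27.7 M estimated reads. The carcinoma keratin genes KRT8 and KRT18 were expressed in every library, at 166 to 350 and 287 to 495 CPM (counts scaled to library size with TMM), and they carried nearly all of the summed epithelial carcinoma markers. That sum was 612 to 649 CPM in Y220C MS78, 801 to 847 CPM in Y220C DMSO, 462 to 475 CPM in Null MS78 and 475 to 521 CPM in Null DMSO. The other epithelial carcinoma markers were at most 5.12 CPM (CLDN4), with the keratin genes KRT7 and KRT19 at most 2.77 and 2.58 CPM. Markers of lung epithelium, 6 genes that include NKX2-1 and SFTPB, summed to at most 5.35 CPM, so the lines expressed KRT8 and KRT18 but showed almost none of the lung's own markers. Fibroblast and smooth muscle markers summed to 1.89 to 8.26 CPM and endothelial markers to 0.667 to 1.9 CPM. The 13 mitochondrially encoded genes, a sign of RNA quality, summed to 35338 to 39843 CPM in Y220C MS78, 36500 to 40191 CPM in Y220C DMSO, 28899 to 32890 CPM in Null MS78 and 31150 to 35561 CPM in Null DMSO. With MS78 6 of these 13 were higher and 1 lower in p53-Y220C cells, where 24.9% and 23.6% of all genes tested were. In p53-null cells 3 were lower, where 13.3% of all genes were. Of their differences between the responses 5 were positive, where 14.4% of all genes had such a difference. The part of the mitochondrial genes in the results was not tested. Replicates 2, 3 and 4 of each MS78 group and replicate 1 of each DMSO group held 55 to 99 reads of the leukocyte gene PTPRC, against 0 to 1 in the other 8 libraries, and their summed leukocyte markers were 67.1 to 148 CPM against 3.04 to 11.1 CPM. A term for those 8 libraries was then given to edgeR's model. With it 15 of the 16 tested leukocyte markers were higher in them, counting PTPRC, whose reads had defined the libraries. That term called 0 of the 42 tested members, 3 of them at an unadjusted p under 0.05, where 0.982% of all genes were called, 0.963% higher and 0.0191% lower.

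For 3 members on which results turn, the 250 bases before RefSeq's start site are shown (GRCh38.p14). CCN2 is shown because it had the largest response to MS78 in p53-Y220C cells, SKIL because its responses in the 2 lines had opposite signs, and FN1 because it differed strongly between the lines and not with MS78. Capitals mark GGAATG (the core of a TEAD motif, searched on both strands) and TGACGTCA (the cyclic AMP response element, whose reverse complement is itself).
CCN2, chr6:131951373-131951622, minus strand: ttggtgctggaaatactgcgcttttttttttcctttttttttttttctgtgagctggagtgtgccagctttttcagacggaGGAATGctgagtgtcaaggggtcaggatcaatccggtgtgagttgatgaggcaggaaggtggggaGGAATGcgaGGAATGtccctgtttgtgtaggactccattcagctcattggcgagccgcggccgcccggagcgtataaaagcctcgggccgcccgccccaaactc
SKIL, chr3:170357465-170357714, plus strand: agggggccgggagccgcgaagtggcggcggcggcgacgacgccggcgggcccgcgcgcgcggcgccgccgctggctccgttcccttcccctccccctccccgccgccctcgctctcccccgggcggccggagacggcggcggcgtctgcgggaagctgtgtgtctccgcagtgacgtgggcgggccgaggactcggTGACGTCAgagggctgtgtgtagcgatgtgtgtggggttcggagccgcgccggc
FN1, chr2:215436069-215436318, minus strand: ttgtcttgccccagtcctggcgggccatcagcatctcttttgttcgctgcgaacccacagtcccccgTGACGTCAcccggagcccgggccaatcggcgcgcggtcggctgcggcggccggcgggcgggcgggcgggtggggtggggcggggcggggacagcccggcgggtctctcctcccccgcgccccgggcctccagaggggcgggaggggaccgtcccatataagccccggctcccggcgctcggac
The CCN2 window holds 3 matches to GGAATG, which begin 169, 104 and 95 bases before the start. The SKIL and FN1 windows each hold 1 TGACGTCA, 54 and 183 bases before the start. Among the 27305 promoters of the same length, 11.9% hold GGAATG and 1.77% hold TGACGTCA. Of the 36 members with an entry in that table, 5 hold GGAATG (13.9%; CCN2, THBS1, SPARC, ITGB1 and TGFB2) and 2 hold TGACGTCA (5.56%; SKIL and FN1). CAGACA, the SMAD-binding core, was found in 3 of the 36 (8.33%) against 13.6% of all promoters, and TGANTCA, the AP-1 motif, in 1 of 36 (2.78%; PLAUR) against 6.6%. The other motifs searched were GGGCGG, the SP1 box (26 of 36, 72.2%, against 42.3%), TATAAA, the TATA box (5 of 36, 13.9%, against 11.1%), and GAANNTTC, the heat shock element (2 of 36, 5.56%, against 5.85%), all on both strands. The capitalised matches do not overlap each other, and a match describes letters and not binding.

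Levels of different genes were set side by side as TPM, which is scaled to transcript length. VIM, the intermediate filament of mesenchymal cells, stood far above the rest at 2955 ± 108 TPM in Y220C MS78, 4066 ± 155 TPM in Y220C DMSO, 4209 ± 37 TPM in Null MS78 and 4369 ± 183 TPM in Null DMSO (SD, n = 4 each). At 100 TPM or more in every group were 10 members: VIM, TIMP1, the urokinase gene PLAU and its receptor PLAUR, ITGA3, ITGB1, the hyaluronan receptor CD44, TGFB1, ID1 and ID3. At the other end, 7 members stayed under 1 TPM in every group, and these were COL4A1, COL4A2, COL5A1, COL5A2, TIMP3, CDH1 and INHBA. CDH1, the E-cadherin of epithelial cells, had 8 to 42 reads per library while CDH2, the N-cadherin of mesenchymal cells, had a mean of 44 to 49.8 CPM in the 4 groups. COL4A1 had 3 to 10 reads, COL4A2 1 to 12, TIMP3 0 to 6 and INHBA 0 to 3, and these 4 fell below the filter on low counts, which left 42 members tested. COL4A1 (110148963 to 110307233) and COL4A2 (110305812 to 110513209) overlap head to head on chromosome 13 only at their ends. Whether any of their few reads fall there was not tested.

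**Figure D1:**
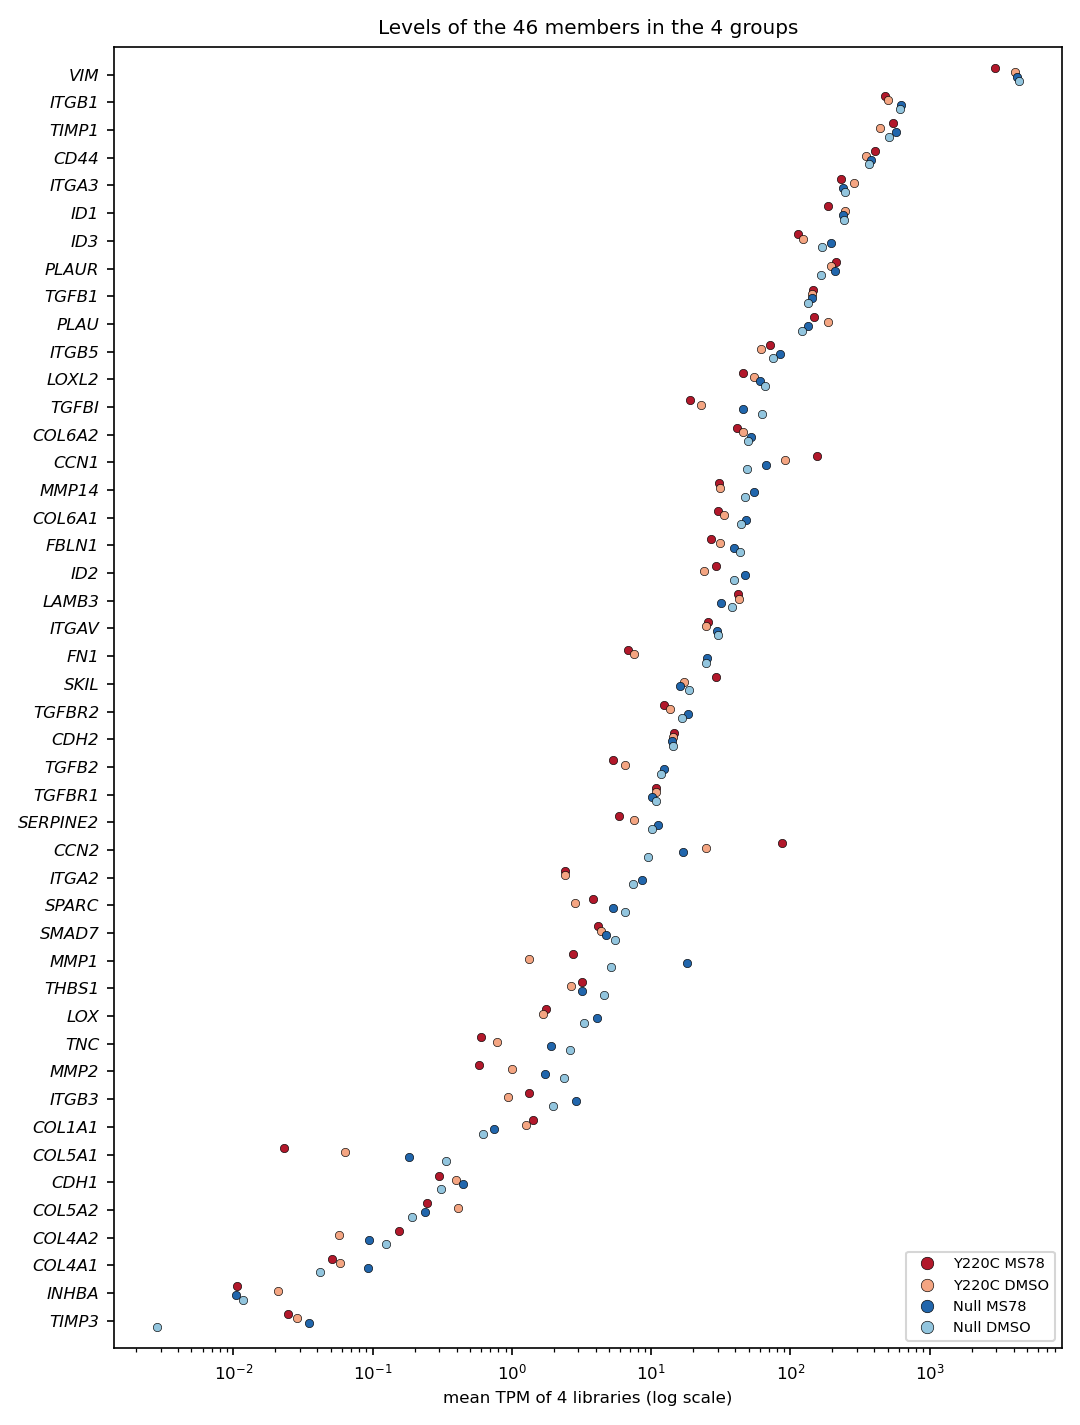
Mean TPM of 4 libraries (horizontal, log scale) for each of the 46 genes, ordered by their level in Null DMSO, with 1 point per group. VIM lies highest in all groups (4369 TPM in Null DMSO) and 7 genes lie under 1 TPM in every group, while CCN2 (86.5 TPM in Y220C MS78 against 9.56 TPM in Null DMSO) and MMP1 (18 TPM in Null MS78 against 1.32 TPM in Y220C DMSO) have widely spaced points.

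The first comparison asked what MS78 did in cells that hold its target mutant. CCN2, CCN1, MMP1 and SKIL rose in p53-Y220C cells given MS78, while VIM, ID1, SERPINE2, TNC and MMP2 fell. Of the 42 tested members, 10 were higher and 11 lower at an adjusted p under 0.05 (edgeR's quasi-likelihood test, Benjamini-Hochberg over 15687 genes). Among all genes tested 48.5% were called, 24.9% higher and 23.6% lower, so the members' share of calls was near that of all genes. The members' median log2 fold change was -0.04 and their median absolute change 0.17, against -0.01 and 0.24 over all genes. All 21 calls kept their sign in fits of the 8 libraries with PTPRC reads alone, where 15 passed, and of the other 8 alone, where 9 passed. Both sets are parts of the libraries that gave the calls, so kept signs there are not separate support. With length-scaled TPM the calls of COL6A1, FBLN1, PLAUR and ITGB5 were lost (adjusted p 0.053 to 0.173). The RNA came from whole cultures, so fewer cells of a kind and less RNA per cell cannot be told apart here.

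The second comparison gave the same treatment to cells without p53. MMP1, CCN2, ITGB3 and CCN1 rose most in p53-null cells given MS78, and TGFBI, TNC, SKIL and LAMB3 fell. Here 18 of the 42 tested members were higher and 6 lower, where 28.1% of all genes tested were called, 14.8% higher and 13.3% lower. The median log2 fold change was 0.10 and the median absolute change 0.21, against 0.01 and 0.14 over all genes. All 24 calls kept their sign within both sets of libraries, and 16 passed within those with PTPRC reads and 6 within those without. Kept signs are again not separate support, since the same libraries gave the calls. With length-scaled TPM 9 calls were lost, those of FBLN1, MMP14, LOX, ITGB1, ITGB5, CDH1, TGFB1, TGFB2 and SKIL. Both lines shared the direction of 11 calls: 8 members were higher with MS78 in both (CCN1, CCN2, MMP1, TIMP1, PLAUR, ITGB3, ITGB5 and ID2) and 3 lower in both (TNC, TGFBI and FBLN1), where 9.43% and 8.29% of all genes tested did so. PLAU, SKIL and COL6A1 were called in opposite directions, as were 2.14% of all genes. Another 7 members were called in p53-Y220C cells alone and 10 in p53-null cells alone, as were 28.7% and 8.2% of all genes. Neither line called the remaining 11 members, among them FN1, COL1A1, SPARC, ITGAV, CDH2, SMAD7 and TGFBR1, where 43.3% of all genes were called in neither.

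The third comparison was the difference of the 2 responses, p53-Y220C minus p53-null, tested as an interaction. It was positive for 4 members (CCN2, SKIL, CCN1 and THBS1) and negative for 14, where 26.8% of all genes tested were called, 14.4% positive and 12.4% negative. The members' median difference was -0.09 on the log2 scale, against -0.02 over all genes. Proteases, the urokinase receptor and a protease inhibitor made up 5 of the 14 negative members (MMP1, MMP14, PLAU, PLAUR and SERPINE2). The others were COL6A1, COL6A2, ITGA3, ITGB1, VIM, TGFB2, TGFBR2, ID1 and ID3. Within the 8 libraries with PTPRC reads 10 of these 18 calls were kept and within the 8 without them 2 (CCN2 and SKIL), and all 18 had the same sign in both sets. With same-numbered libraries of the 2 lines paired within each treatment, the differences of TGFBI (0.21, adjusted p = 0.0424) and CD44 (0.15, adjusted p = 0.044) passed as well. With length-scaled TPM the differences of COL6A2, THBS1, MMP14, PLAUR, ITGB1 and TGFB2 were lost (adjusted p 0.0581 to 0.322). In each set of 8 libraries 1 arm of each treatment comparison is a single library, which is assumed to vary like the others. Both sets are parts of the libraries that gave the calls, so kept signs are not separate support.

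**Figure D2:**
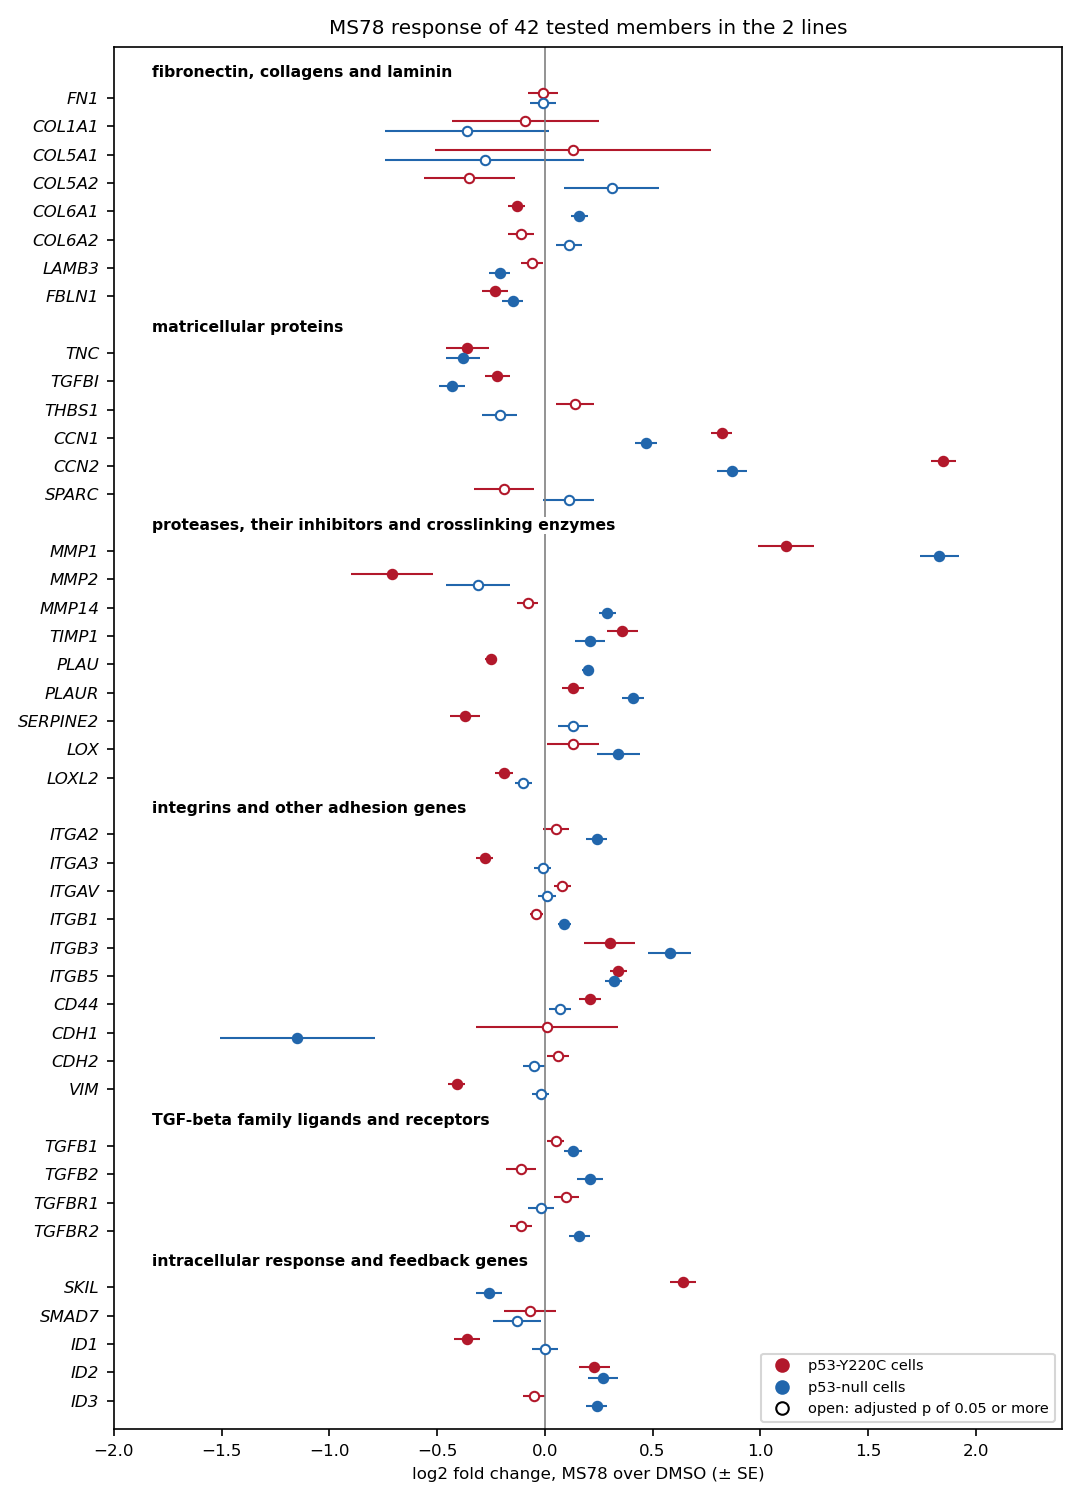
Fitted log2 fold change of MS78 over DMSO with its SE (horizontal) for the 42 tested genes by role, with p53-Y220C cells as the upper and p53-null cells as the lower point of each pair, filled where the adjusted p was under 0.05. CCN2 lies farthest to the right in p53-Y220C cells (1.85) and MMP1 in p53-null cells (1.83), and SKIL lies to the right in p53-Y220C cells (0.64) and to the left in p53-null cells (-0.26).

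CCN2, the connective tissue growth factor on chromosome 6 (GENCODE 29, GRCh38, 131948176 to 131951373), carries the 3 TEAD cores shown above. It had 154, 152, 145 and 147 CPM in the 4 Y220C MS78 libraries, against 42, 40.1, 42.4 and 42 CPM in Y220C DMSO. In p53-null cells it had 30.2, 25.7, 30.2 and 26.9 CPM in Null MS78, against 14.7, 18.2, 13.6 and 15.5 CPM in Null DMSO. Groups did not overlap in either line, and the lowest Y220C MS78 library was above every other library of the series. The log2 fold change was 1.85 (SE 0.06, 3.6-fold, adjusted p = 7.12e-16) in p53-Y220C cells and 0.87 (SE 0.07, 1.82-fold, adjusted p = 5.9e-09) in p53-null cells. The difference of 0.98 (SE 0.09, adjusted p = 1.64e-07) was 0.93 within libraries with PTPRC reads and 0.96 within those without, and passed the threshold in both.

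CCN1, its relative on chromosome 1 (85580761 to 85583962), a ligand of integrins, showed the same order at a higher level. Counts were 268, 262, 246 and 257 CPM in Y220C MS78, against 141, 139, 156 and 148 CPM in Y220C DMSO. They were 109, 98.3, 111 and 106 CPM in Null MS78, against 75.8, 78.7, 72.3 and 80.1 CPM in Null DMSO. No MS78 library of a line overlapped its DMSO libraries. The log2 fold change was 0.82 (SE 0.05, adjusted p = 5.63e-12) in p53-Y220C and 0.47 (SE 0.05, adjusted p = 1.6e-07) in p53-null cells, and the difference was 0.36 (SE 0.07, adjusted p = 3.92e-04). Within libraries without PTPRC reads that difference was 0.37 with an adjusted p of 0.146.

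The matricellular members numbered 6, all tested, of which 2 rose and 2 fell in each line, against 24.9% and 23.6% of all genes in p53-Y220C cells and 14.8% and 13.3% in p53-null cells. TNC, the tenascin C of remodelling tissue, was at 2.9 to 3.81 CPM in Y220C MS78 and 4.03 to 4.88 CPM in Y220C DMSO, and at 9.86 to 10.5 CPM in Null MS78 and 12.7 to 13.7 CPM in Null DMSO. It fell in both lines, by 0.36 and 0.38 on the log2 scale (adjusted p = 4.87e-03 and 6.03e-04), and in p53-Y220C cells it was -0.15 (adjusted p = 0.549) within libraries with PTPRC reads. TGFBI, a secreted integrin ligand named for its induction by TGF-beta, fell by 0.22 (adjusted p = 6.63e-03) in p53-Y220C and by 0.43 (adjusted p = 4.47e-06) in p53-null cells, where Null MS78 libraries had 87.1 to 95.7 CPM and Null DMSO libraries 110 to 132 CPM. THBS1, the thrombospondin that activates latent TGF-beta, passed the test in neither line (0.14 and -0.21, adjusted p = 0.178 and 0.0566), with 14.8 to 18.3 CPM in Y220C MS78 and 14.6 to 16.7 CPM in Y220C DMSO, and 18 to 21.2 CPM in Null MS78 and 19.8 to 25.1 CPM in Null DMSO. Its difference of 0.35 (adjusted p = 0.0305) missed the threshold in 9 of the 16 fits that left out 1 library (adjusted p 0.0523 to 0.0697), those without Y220C MS78 2, 3 or 4, Y220C DMSO 1, Null MS78 1, 3 or 4, or Null DMSO 1 or 2. Without Y220C MS78 1 the THBS1 response in p53-Y220C cells passed (0.21, adjusted p = 0.0479), and without Y220C MS78 1, Null MS78 2 or Null DMSO 3 or 4 that in p53-null cells did (adjusted p 0.0209 to 0.0394). SPARC, a collagen-binding protein, had log2 fold changes of -0.19 and 0.11 (adjusted p = 0.283 and 0.56) at 2.58 to 9.45 CPM over all libraries.

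**Figure D3:**
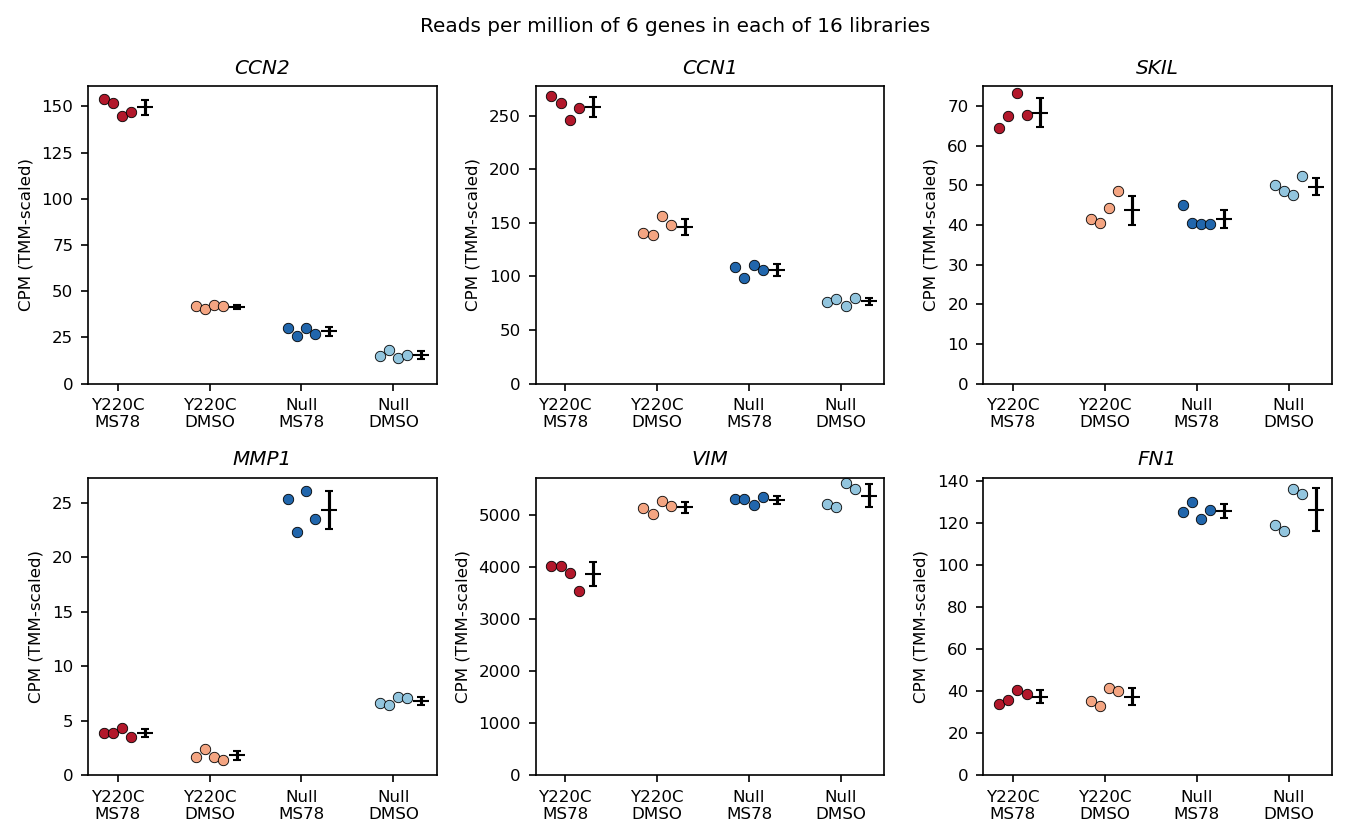
TMM-scaled CPM of 6 genes (vertical, linear from 0) in each library by group, with 1 point per library and the mean ± SD of 4 libraries beside it. CCN2 (145 to 154 CPM), CCN1 and SKIL are highest in Y220C MS78, MMP1 is highest in Null MS78 (22.3 to 26.1 CPM), VIM is lowest in Y220C MS78 (3526 to 4021 CPM), and FN1 differs between the lines and not with MS78.

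Of the 9 tested proteases, inhibitors and crosslinking enzymes 3 rose and 4 fell in p53-Y220C cells, where 24.9% and 23.6% of all genes did. In p53-null cells 6 rose, where 14.8% of all genes did. PLAUR, the urokinase receptor, is counted among the 9. MMP1, the interstitial collagenase on chromosome 11 (102789920 to 102798160), moved most in both lines. It had 3.88, 3.89, 4.33 and 3.45 CPM in Y220C MS78, against 1.67, 2.41, 1.69 and 1.42 CPM in Y220C DMSO. It had 25.4, 22.3, 26.1 and 23.5 CPM in Null MS78, against 6.61, 6.43, 7.15 and 7.06 CPM in Null DMSO. The 4 groups did not overlap, and even the highest Y220C MS78 library was below the lowest Null DMSO library. The rise was 1.12 (SE 0.13, 2.17-fold, adjusted p = 7.76e-07) in p53-Y220C and 1.83 (SE 0.09, 3.56-fold, adjusted p = 3.75e-12) in p53-null cells. The difference of -0.72 (SE 0.17, adjusted p = 3.03e-03) was -0.62 (adjusted p = 0.193) within libraries with PTPRC reads and -0.80 (adjusted p = 0.21) within those without.

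MMP2, a gelatinase, went the other way at a low level, with 1.82, 1.22, 1.46 and 1.01 CPM in Y220C MS78 and 2.49, 2.7, 2.07 and 1.78 CPM in Y220C DMSO, ranges that overlap slightly. It fell by 0.71 (SE 0.19, adjusted p = 3.63e-03) in p53-Y220C cells, and by 0.26 (adjusted p = 0.587) within libraries without PTPRC reads, and in p53-null cells its log2 fold change was -0.31 (adjusted p = 0.127). MMP14, the membrane-bound activator of MMP2, had 67.2 to 77.4 CPM in Y220C MS78 and 76.9 to 78.2 CPM in Y220C DMSO. In p53-null cells it rose, with 139, 148, 145 and 149 CPM in Null MS78 and 119, 117, 128 and 110 CPM in Null DMSO (0.29, SE 0.04, adjusted p = 3.63e-05). Its difference was -0.37 (adjusted p = 2.55e-04), and with length-scaled TPM neither its rise nor its difference passed (adjusted p = 0.158 and 0.322). TIMP1, an inhibitor of metalloproteinases, had 274, 262, 236 and 223 CPM in Y220C MS78 and 182, 185, 208 and 201 CPM in Y220C DMSO, a rise of 0.36 (SE 0.07, adjusted p = 2.14e-04). Its rise of 0.21 in p53-null cells (adjusted p = 0.0263) missed the threshold without Null MS78 3 or 4 or Null DMSO 1 or 2 (0.16 to 0.20, adjusted p 0.0558 to 0.113).

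The urokinase system moved in opposite directions in the 2 lines at its protease. PLAU, urokinase itself, had 223, 212, 207 and 217 CPM in Y220C MS78 and 257, 252, 254 and 261 CPM in Y220C DMSO. In p53-null cells PLAU had 193, 188, 191 and 195 CPM in Null MS78 and 169, 166, 172 and 160 CPM in Null DMSO. So every Y220C MS78 library was below every Y220C DMSO library, and every Null MS78 library was above every Null DMSO library. The log2 fold changes were -0.25 (SE 0.03, adjusted p = 1.84e-06) and 0.20 (SE 0.03, adjusted p = 7.68e-05), and the difference was -0.46 (SE 0.05, adjusted p = 4.03e-07), with -0.43 (adjusted p = 1.71e-03) and -0.41 (adjusted p = 0.0515) within libraries with and without PTPRC reads. PLAUR, its receptor, had 180, 187, 197 and 194 CPM in Null MS78 and 155, 139, 150 and 126 CPM in Null DMSO, a rise of 0.41 (SE 0.05, adjusted p = 3.19e-06). In p53-Y220C cells its rise of 0.13 (adjusted p = 0.0447) missed the threshold in 11 of the 16 fits that left out 1 library (0.10 to 0.14, adjusted p 0.05 to 0.134), those without any 1 Y220C MS78 library, Y220C DMSO 1, 3 or 4, Null MS78 2, 3 or 4, or Null DMSO 2.

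SERPINE2, a serpin that blocks thrombin and urokinase, had 9.52, 9.49, 8.29 and 8.42 CPM in Y220C MS78 and 11.5, 12.3, 11.3 and 11.1 CPM in Y220C DMSO. It fell by 0.37 (SE 0.07, adjusted p = 3.03e-04), while in p53-null cells it had 15 to 17.7 CPM in Null MS78 and 14.7 to 15.8 CPM in Null DMSO (0.13, adjusted p = 0.154). The difference of -0.50 (adjusted p = 7.6e-04) was -0.53 and -0.39 within libraries with and without PTPRC reads (adjusted p = 0.0824 and 0.283). Of the crosslinking enzymes, LOX rose by 0.34 in p53-null cells (adjusted p = 0.0141), with 13.4 to 15.3 CPM in Null MS78 and 9.57 to 12.3 CPM in Null DMSO. That call was lost without Null MS78 1 or without Null DMSO 2 (0.27 to 0.30, adjusted p 0.0509 to 0.0625). LOXL2 fell by 0.19 in p53-Y220C cells (adjusted p = 5.3e-04), where 118 to 125 CPM in Y220C MS78 lay below 134 to 142 CPM in Y220C DMSO, and in p53-null cells its -0.10 (adjusted p = 0.0648) passed without Null DMSO 4 (-0.14, adjusted p = 7.53e-03).

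The integrins and other adhesion genes, 10 in all, held 3 that rose and 2 that fell in p53-Y220C cells and 4 that rose and 1 that fell in p53-null cells, against 24.9%, 23.6%, 14.8% and 13.3% of all genes. ITGB5 rose alike in both lines: it had 138, 139, 133 and 141 CPM in Y220C MS78 against 107, 118, 107 and 104 CPM in Y220C DMSO, and 137, 141, 144 and 148 CPM in Null MS78 against 117, 118, 113 and 109 CPM in Null DMSO. The rises were 0.34 (SE 0.04, adjusted p = 9.85e-07) and 0.32 (SE 0.04, adjusted p = 4.25e-06) with a difference of 0.02 (SE 0.06), and both calls were lost with length-scaled TPM (0.24 and 0.20, adjusted p = 0.173 and 0.344). ITGB3, which pairs with ITGAV in the vitronectin receptor, rose by 0.58 (SE 0.10, adjusted p = 1.31e-04) in p53-null cells, at 7.81 to 9.37 CPM in Null MS78 and 5.08 to 6.55 CPM in Null DMSO. In p53-Y220C cells its 3.29, 3.94, 3.81 and 3.09 CPM in Y220C MS78 lay just above 3.04, 2.7, 2.82 and 2.93 CPM in Y220C DMSO. That rise of 0.30 (adjusted p = 0.0452) missed the threshold in 10 of the 16 fits that left out 1 library (0.24 to 0.32, adjusted p 0.0506 to 0.15), those without Y220C MS78 2 or 3, any 1 Y220C DMSO library, Null MS78 1 or 2, or Null DMSO 1 or 4, and it was 0.121 by DESeq2.

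ITGA3, the laminin receptor chain, had 877, 894, 840 and 892 CPM in Y220C MS78 and 1035, 1045, 1065 and 1104 CPM in Y220C DMSO, with no overlap. It fell by 0.28 (SE 0.04, adjusted p = 2.02e-06) there, and in p53-null cells it had 825 to 902 CPM in Null MS78 and 847 to 927 CPM in Null DMSO (-0.01, adjusted p = 0.876). ITGA2, a collagen receptor chain, rose in p53-null cells, with 51.7 to 58.4 CPM in Null MS78 and 42.5 to 47.6 CPM in Null DMSO (0.24, adjusted p = 4.61e-04), and in p53-Y220C cells it was at 15.6 to 16.5 CPM with MS78 and 14.9 to 15.6 CPM with DMSO (0.05, adjusted p = 0.486). ITGB1, the common beta chain, stayed within 1025 to 1098 CPM in both Y220C groups, and its rise of 0.09 in p53-null cells (adjusted p = 0.041) missed the threshold without Y220C DMSO 1, Null MS78 1, 3 or 4, or Null DMSO 1 or 2 (adjusted p 0.0608 to 0.186). ITGAV had log2 fold changes of 0.08 and 0.01 (adjusted p = 0.115 and 0.923). CD44 rose by 0.21 in p53-Y220C cells (adjusted p = 1.53e-03), with 455 to 527 CPM in Y220C MS78 and 395 to 461 CPM in Y220C DMSO, ranges that overlap.

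VIM, on chromosome 10 (17228259 to 17237593), had 4021, 4010, 3885 and 3526 CPM in Y220C MS78 and 5125, 5016, 5272 and 5167 CPM in Y220C DMSO. In p53-null cells it had 5301, 5293, 5188 and 5349 CPM in Null MS78 and 5213, 5139, 5611 and 5500 CPM in Null DMSO. All 4 Y220C MS78 libraries were below the 12 others, and the p53-null groups overlapped. VIM fell by 0.41 (SE 0.04, adjusted p = 8.19e-09) in p53-Y220C cells, its log2 fold change was -0.02 (adjusted p = 0.707) in p53-null cells, and the difference was -0.39 (SE 0.05, adjusted p = 1.03e-05). The keratin genes KRT8 and KRT18 were also lower in Y220C MS78 than in Y220C DMSO (-0.44 and -0.38 on the log2 scale), so both the mesenchymal and the epithelial filament genes had lower counts there. CDH1 was at 1.12 to 1.27 CPM in Y220C MS78 and 0.557 to 1.97 CPM in Y220C DMSO, and its fall by 1.15 in p53-null cells (adjusted p = 0.0217) rested on 8 to 11 reads a library in Null MS78 and 14 to 32 in Null DMSO, was lost without Null DMSO 1 (-0.86, adjusted p = 0.103) and was 0.54 (adjusted p = 0.635) with length-scaled TPM. CDH2 passed the test in neither line.

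Of the 8 tested structural matrix genes 2 fell in p53-Y220C cells, where 23.6% of all genes did, and 1 rose and 2 fell in p53-null cells, where 14.8% and 13.3% did. Their median absolute log2 change was 0.119 in p53-Y220C cells and 0.187 in p53-null cells, against 0.241 and 0.143 over all genes. FN1, the fibronectin gene on chromosome 2 (215360440 to 215436172), had 33.8, 35.8, 40.6 and 38.7 CPM in Y220C MS78 and 35.4, 32.9, 41.3 and 39.8 CPM in Y220C DMSO, and 125, 130, 122 and 126 CPM in Null MS78 and 119, 116, 136 and 134 CPM in Null DMSO. The log2 fold change with MS78 was -0.01 in both lines, with an SE of 0.07 and 0.06 and adjusted p-values of 0.958 and 0.929. COL6A1 and COL6A2, 2 chains of the beaded filament collagen VI that neighbour each other on chromosome 21, both had negative differences between the responses, of -0.29 (adjusted p = 5.04e-04) and -0.23 (adjusted p = 0.0414). COL6A1 had 102, 97.4, 90.7 and 98.3 CPM in Y220C MS78 and 106, 104, 106 and 107 CPM in Y220C DMSO, against 149, 156, 156 and 158 CPM in Null MS78 and 136, 137, 146 and 133 CPM in Null DMSO. Its fall of 0.13 in p53-Y220C cells (adjusted p = 0.0121) was lost without Y220C MS78 3 (-0.09, adjusted p = 0.0587), and its rise of 0.16 in p53-null cells had an adjusted p of 2.31e-03. The COL6A2 difference missed the threshold in 11 of the 16 fits that left out 1 library (adjusted p 0.0532 to 0.0962), all but those without Y220C MS78 1 or 4, Y220C DMSO 4, Null MS78 1 or Null DMSO 3, and without Null DMSO 3 its response in p53-null cells passed (0.16 against 0.11, adjusted p = 0.0487 against 0.146).

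LAMB3, a chain of laminin 332 in epithelial basement membrane, fell by 0.21 (SE 0.05, adjusted p = 1.49e-03) in p53-null cells, with 72.1, 73.7, 74.3 and 78.2 CPM in Null MS78 and 90.3, 83.8, 92 and 78.8 CPM in Null DMSO. FBLN1, a fibulin of elastic fibres and basement membranes, fell by 0.23 (adjusted p = 2.01e-03) in p53-Y220C cells, at 43.9 to 47.4 CPM in Y220C MS78 and 48.1 to 58.8 CPM in Y220C DMSO. Its fall by 0.15 in p53-null cells (adjusted p = 0.0417) missed the threshold in 10 of the 16 fits that left out 1 library (adjusted p 0.0511 to 0.12), those without Y220C MS78 3 or 4, Y220C DMSO 3, any 1 Null MS78 library, or Null DMSO 1, 2 or 3. COL1A1, COL5A1 and COL5A2, fibrillar collagen genes with 1 to 101 reads a library, passed the test in neither line, and their standard errors of 0.21 to 0.64 on the log2 scale set the limit.

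Of the 4 tested TGF-beta ligands and receptors 3 rose in p53-null cells, where 14.8% of all genes did, and their median absolute log2 change there was 0.147, against 0.143 over all genes. TGFB1 had 278 to 316 CPM in Y220C MS78 and 280 to 299 CPM in Y220C DMSO (0.05, adjusted p = 0.338), and its rise of 0.13 in p53-null cells (adjusted p = 0.0323) missed the threshold without Null MS78 2 or 4 or Null DMSO 2 or 4 (adjusted p 0.0837 to 0.123). TGFB2 had 40.8, 39.3, 41.4 and 38.5 CPM in Null MS78 and 32.6, 35.1, 36.3 and 34.1 CPM in Null DMSO, a rise of 0.21 (SE 0.06, adjusted p = 8.98e-03). In p53-Y220C cells TGFB2 was at 17.2 to 19.9 CPM with MS78 and 18.2 to 23.3 CPM with DMSO (-0.11, adjusted p = 0.202), and the difference was -0.32 (adjusted p = 0.0112). TGFBR2, the type II receptor that binds the ligand, had the same pattern: it rose by 0.16 (adjusted p = 9.19e-03) in p53-null cells, with 63.7 to 68.5 CPM in Null MS78 and 55.8 to 63.1 CPM in Null DMSO, was at -0.11 (adjusted p = 0.0717) in p53-Y220C cells, and differed by -0.27 (adjusted p = 4.21e-03). Its response in p53-Y220C cells passed without Y220C DMSO 1 or Null DMSO 3 (-0.14 to -0.11, adjusted p 0.0343 to 0.0435). Neither difference passed within a single set of libraries with or without PTPRC reads (adjusted p 0.0603 to 0.54), and the rise and the difference of TGFB2 were lost with length-scaled TPM (adjusted p = 0.508 and 0.0916). TGFBR1, the type I receptor kinase, had log2 fold changes of 0.10 and -0.02 (adjusted p = 0.22 and 0.842), and without Y220C MS78 1 the first was 0.16 (adjusted p = 0.0437).

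SKIL, on chromosome 3 (170357678 to 170396835), encodes SnoN, which binds SMADs and holds back their target genes. It had 64.5, 67.6, 73.4 and 67.9 CPM in Y220C MS78 and 41.5, 40.5, 44.4 and 48.7 CPM in Y220C DMSO. In p53-null cells SKIL had 45.1, 40.5, 40.3 and 40.2 CPM in Null MS78 and 50, 48.5, 47.7 and 52.5 CPM in Null DMSO. Every Y220C MS78 library was above the 12 others, and every Null MS78 library was below every Null DMSO library. The rise in p53-Y220C cells was 0.64 (SE 0.06, 1.56-fold, adjusted p = 1.09e-08). The fall in p53-null cells was 0.26 (SE 0.06, adjusted p = 1.8e-03) and did not pass within libraries without PTPRC reads (-0.14, adjusted p = 0.535) or with length-scaled TPM (adjusted p = 0.409). The difference of 0.90 (SE 0.08, adjusted p = 8.71e-08) was 1.07 and 0.68 within libraries with and without PTPRC reads and passed in both.

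SMAD7, the inhibitory SMAD that TGF-beta induces as feedback, passed in neither line (-0.07 and -0.13, adjusted p = 0.636 and 0.437), at 6.26 to 8.62 CPM in Y220C MS78 and 6.57 to 9.46 CPM in Y220C DMSO, and 7.9 to 9.86 CPM in Null MS78 and 8.63 to 10.1 CPM in Null DMSO. The ID genes, helix-loop-helix proteins that BMP signals induce, went separate ways. ID1 had 115, 107, 103 and 94 CPM in Y220C MS78 and 129, 124, 142 and 143 CPM in Y220C DMSO, a fall of 0.36 (SE 0.06, adjusted p = 2.18e-05), and was at 126 to 132 CPM in Null MS78 and 122 to 138 CPM in Null DMSO. Its difference was -0.36 (adjusted p = 2.12e-03). ID3 rose in p53-null cells, with 138, 148, 144 and 152 CPM in Null MS78 and 124, 126, 127 and 116 CPM in Null DMSO (0.24, adjusted p = 6.17e-04), and was at -0.05 (adjusted p = 0.432) in p53-Y220C cells. ID2 rose in both lines, by 0.23 (adjusted p = 0.0134) and 0.27 (adjusted p = 3.71e-03), and the first of these was lost without Y220C MS78 3 (0.17, adjusted p = 0.0704).

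The last comparisons set p53-Y220C against p53-null cells. FN1, MMP1, ITGA2, TNC, TGFBI, MMP2, SPARC and ITGB3 were lower in p53-Y220C cells by 1.01 or more on the log2 scale under both MS78 and DMSO, and CCN2 and CCN1 were higher under both. Under MS78 9 of the 42 tested members were higher and 23 lower, where 61.8% of all genes tested were called, 30.7% higher and 31.2% lower. The members' median log2 difference was -0.30 and their median absolute difference 0.62, against -0.01 and 0.31 over all genes. Of the 13 mitochondrially encoded genes 10 were higher in p53-Y220C cells under MS78, with a median log2 difference of 0.30, and 4 higher and 2 lower under DMSO. Under DMSO 9 of the 42 tested members were higher and 25 lower, where 50.2% of all genes were called, 24.7% higher and 25.5% lower. The members' medians were -0.24 and 0.42, against 0.00 and 0.23 over all genes. Within libraries with PTPRC reads 32 of the 32 calls under MS78 passed, and within those without 31 of the 34 under DMSO. Both rest on replicates 2, 3 and 4 of each line. Under DMSO with PTPRC reads and under MS78 without them, only replicate 1 of each line remained. There 1 library was set against 1, and 33 of the 34 and 31 of the 32 calls kept their sign. All these fits reuse libraries that gave the calls, so they are not separate support.

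FN1 was 3.38-fold lower in p53-Y220C cells under MS78 (-1.76, SE 0.07, adjusted p = 1.73e-14) and 3.39-fold lower under DMSO (-1.76, SE 0.07, adjusted p = 4.31e-14). No p53-Y220C library came near a p53-null library for this gene. ITGA2 was 3.39-fold lower under MS78 and 2.98-fold lower under DMSO (adjusted p = 1.83e-16 and 3.33e-15). MMP1 was 6.25-fold lower under MS78 (-2.64, adjusted p = 1.1e-14) and 3.8-fold lower under DMSO (-1.93, adjusted p = 8.15e-11). The matricellular genes TNC (-1.59), TGFBI (-1.39) and SPARC (-1.09) were lower under DMSO with adjusted p-values of 4.2e-12, 1.23e-13 and 5.63e-07, and THBS1 was too (-0.49, adjusted p = 5.87e-05). Under MS78 SPARC was at -1.38 (adjusted p = 1.32e-08) and, with length-scaled TPM, at -0.44 (adjusted p = 0.224). CCN2 was 5.3-fold higher under MS78 (2.41, adjusted p = 1.62e-17) and 2.69-fold higher under DMSO (1.43, adjusted p = 1.25e-12), and CCN1 was 2.44-fold and 1.9-fold higher (1.28 and 0.93). So under DMSO the CCN genes stood on the opposite side from the other 4 matricellular members.

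**Figure D4:**
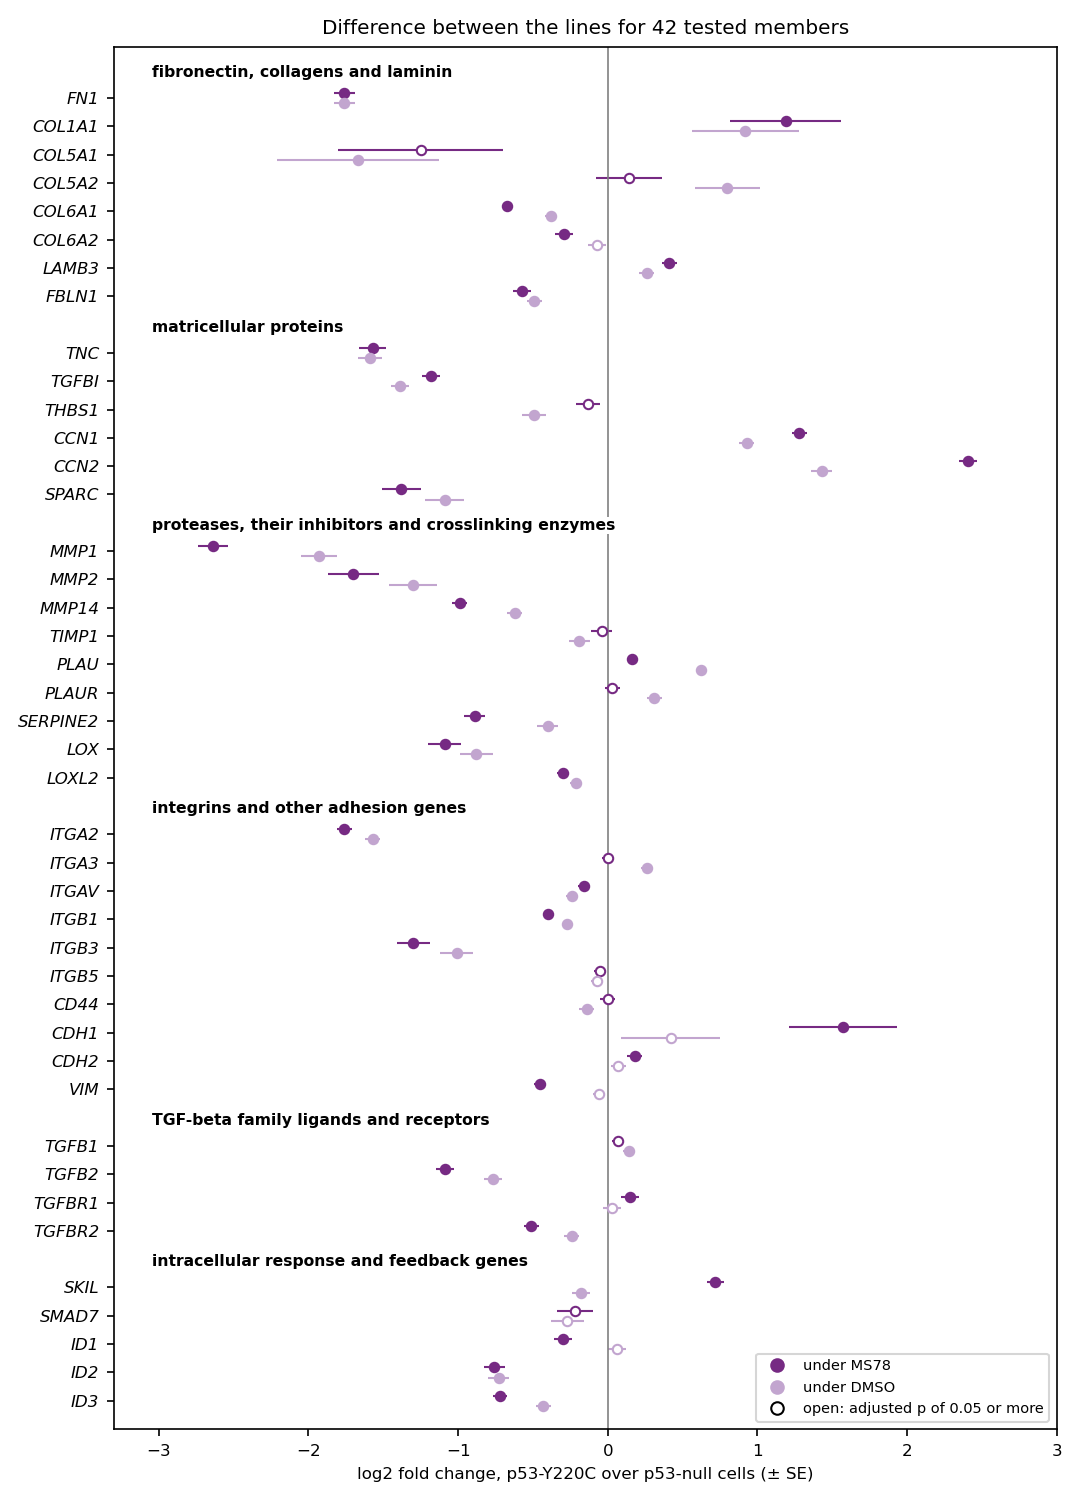
Fitted log2 fold change of p53-Y220C over p53-null cells with its SE (horizontal) for the 42 tested genes by role, under MS78 as the upper and under DMSO as the lower point, filled where the adjusted p was under 0.05. Points of FN1, COL5A1, TNC, TGFBI, SPARC, MMP1, MMP2, ITGA2 and ITGB3 lie left of -1 in both, and those of CCN2 lie to the right at 2.41 and 1.43.

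Of the same 9 tested proteases, inhibitors and crosslinking enzymes, with the receptor PLAUR, 7 were lower under DMSO and 2 higher, where 25.5% and 24.7% of all genes were. MMP2 was 2.47-fold lower under DMSO (-1.30, adjusted p = 8.81e-07), LOX 1.84-fold lower (-0.88, adjusted p = 1.14e-06), MMP14 1.53-fold lower (-0.62, adjusted p = 9.43e-10) and SERPINE2 1.32-fold lower (-0.40, adjusted p = 6.17e-05). PLAU and PLAUR were higher, by 0.62 and 0.31 (adjusted p = 4.99e-12 and 5.21e-05). TGFB2 was 1.7-fold lower in p53-Y220C cells (-0.77, adjusted p = 3.52e-09), with 18.2 to 23.3 CPM in Y220C DMSO and 32.6 to 36.3 CPM in Null DMSO, and ID2 (-0.73), ID3 (-0.43) and TGFBR2 (-0.24) were lower too (adjusted p = 4.4e-08, 4.25e-07 and 2.42e-04). ITGB3 was at 2.7 to 3.04 CPM in Y220C DMSO and 5.08 to 6.55 CPM in Null DMSO (-1.01, adjusted p = 2.08e-07), whereas ITGB5 did not pass (-0.07, adjusted p = 0.159). VIM and ID1 were lower in p53-Y220C cells under MS78, at -0.45 and -0.30 (adjusted p = 1.21e-09 and 1.04e-04), and did not pass under DMSO (-0.06 and 0.06, adjusted p = 0.176 and 0.423). SKIL was higher under MS78 by 0.72 (adjusted p = 1.07e-09) and lower under DMSO, at -0.18 (adjusted p = 0.0124) with overlapping groups, and that DMSO call was lost with length-scaled TPM (adjusted p = 0.683).

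Some line calls rested on few reads or single libraries. CDH1 was higher in p53-Y220C cells under MS78 (1.57, adjusted p = 7.68e-04) at 22 to 26 reads in Y220C MS78 and 8 to 11 in Null MS78, and was -0.49 with length-scaled TPM. Under DMSO the COL1A1 value of 0.92 (adjusted p = 0.0367) was lost without Y220C DMSO 3 or 4 or Null DMSO 2, 3 or 4 (0.68 to 0.88, adjusted p 0.079 to 0.149). Within libraries with PTPRC reads the COL1A1 value was -0.13, from Y220C DMSO 1 against Null DMSO 1 alone. COL5A1 (-1.67, adjusted p = 0.0137) was lost without Y220C DMSO 1 or Null DMSO 2, TIMP1 (-0.19, adjusted p = 0.0304) without Y220C DMSO 1 or 2 or Null DMSO 3 or 4, and CD44 (-0.14, adjusted p = 0.0235) without Y220C DMSO 2 or Null DMSO 3 or 4. Their adjusted p-values then ran over 0.0535 to 0.0636, 0.0714 to 0.149 and 0.0629 to 0.0941. Under MS78 the TGFBR1 value of 0.15 (adjusted p = 0.0422) was lost without Y220C MS78 2 or 3 or any 1 Null MS78 library (0.07 to 0.17, adjusted p 0.0509 to 0.255). COL6A1 relative to COL6A2 also differed by line, with a TPM ratio of 0.708 to 0.748 in Y220C MS78, 0.644 to 0.772 in Y220C DMSO, 0.887 to 0.952 in Null MS78 and 0.835 to 0.945 in Null DMSO.

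Transcript make-up is described, with no test, for the members with at least 2 protein-coding transcripts above 20% of the gene's TPM. For FN1, COL1A1, TNC, SPARC, CDH2, TGFBR1 and TGFBR2 the shares spread widely among libraries of a group. The largest SD was 37 percentage points, for COL1A1-201 in Null DMSO. LAMB3 had SDs of 2.2 to 6.5 percentage points, and FBLN1 and PLAUR were steadier. The share of FBLN1 TPM in FBLN1-202 was 27.5% ± 2.1 in Y220C MS78, 34.5% ± 1.5 in Y220C DMSO, 38.7% ± 4 in Null MS78 and 41.4% ± 3.9 in Null DMSO (SD, n = 4 each), and FBLN1-201 held most of the rest. The share of PLAUR TPM in PLAUR-203 was 61.4% ± 1.1 in Y220C MS78, 65.4% ± 2 in Y220C DMSO, 68% ± 2.2 in Null MS78 and 62.3% ± 0.96 in Null DMSO. These shares are the quantifier's division of reads between overlapping transcripts.

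Other genes of the same pathways, 148 in 5 lists of which 125 were tested, were read beside the members. With MS78, 39 were higher and 25 lower in p53-Y220C cells, and 23 higher and 13 lower in p53-null cells. These are shares near those of all genes tested, of which 48.5% and 28.1% were called. Of the differences between the responses 22 were positive and 17 negative, where 14.4% and 12.4% of all genes were. Between the lines 42 were higher and 48 lower under MS78, and 39 higher and 48 lower under DMSO, where 61.8% and 50.2% of all genes were called. In p53-Y220C cells 10 of the 34 other matrix genes tested were lower and 6 higher, and 11 of the 22 other proteases, inhibitors and matrix-modifying enzymes were higher and 2 lower, where 24.9% of all genes were higher and 23.6% lower. In p53-null cells 2 of those 34 matrix genes were lower and 1 higher. Of the same 22 enzymes and inhibitors 10 were higher and 1 lower there, where 14.8% and 13.3% of all genes were. The collagen prolyl hydroxylases P4HA2 and P4HA1 rose by 1.44 and 0.75 (adjusted p = 1.17e-12 and 1.73e-08), with 64.5 to 66.7 CPM of P4HA2 in Y220C MS78 and 22.8 to 25.5 CPM in Y220C DMSO. P4HA1 also rose in p53-null cells, by 0.43 (adjusted p = 7.83e-05), and P4HA2 had 30.1 to 35.1 CPM in Null MS78 against 22.1 to 29.4 CPM in Null DMSO. PLAT, the tissue plasminogen activator, rose by 1.15 in p53-Y220C cells and by 1.30 in p53-null cells (adjusted p = 3.32e-09 and 1.54e-08). Among the genes that fell in p53-Y220C cells were the hemidesmosome integrin chain ITGB4 (-0.79, adjusted p = 9.49e-09) and the elastic fibre gene FBN2 (-0.49, adjusted p = 6.32e-06).

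Of 26 other TGF-beta and BMP ligands, receptors and binding proteins tested in p53-Y220C cells 10 were higher and 5 lower, and of 22 other SMADs, regulators and response genes 8 were higher and 4 lower, where 48.5% of all genes were called. ANKRD1, a YAP target, had 6.77 to 7.32 CPM in Y220C MS78 and 1.83 to 3.1 CPM in Y220C DMSO (2.83-fold, adjusted p = 4.96e-07), and at most 0.497 CPM in p53-null cells. KLF10, an early TGF-beta response gene, rose by 0.62 in p53-Y220C cells (adjusted p = 5.6e-11), and in p53-null cells its log2 fold change was -0.18 (adjusted p = 1.65e-03). NOG, the secreted BMP antagonist, rose by 1.89 in p53-Y220C cells and by 0.89 in p53-null cells (adjusted p = 1.93e-07 and 7.02e-05). SMAD3, a signal carrier of TGF-beta, fell in both lines, with 86.6 to 101 CPM in Y220C MS78 and 136 to 139 CPM in Y220C DMSO (-0.54, adjusted p = 7.84e-10), and 187 to 200 CPM in Null MS78 and 238 to 250 CPM in Null DMSO (-0.34, adjusted p = 6.64e-07). PMEPA1, a feedback inhibitor of TGF-beta signalling, was lower in p53-Y220C than in p53-null cells under DMSO (-1.76, adjusted p = 3.79e-15), with 16.2 to 19.8 CPM in Y220C DMSO and 57.3 to 65.3 CPM in Null DMSO, while ANKRD1 was higher there by 3.01 (adjusted p = 2.45e-09).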

How the data were processed

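Poly(A) RNA of 16 libraries in 4 groups of 4 was measured, with groups and replicate numbers taken from the labels. The deposited tables hold 1 row per transcript. Per the file headers, the authors gave each transcript an estimated count, not normalized and not always whole, and a TPM value, scaled by the authors to effective transcript length. FastQC 0.11.8 and the build hg38 are named per the submitters' processing notes. The quantifier's version, its annotation and any use of strand were not given in the sources used here.

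GENCODE 29 (GRCh38) named 193348 (97.8%) of the 197653 transcripts in each table. The rest held 0.278% to 0.325% of a library's reads and were left out. Estimated counts were summed per gene and rounded. The gene test was edgeR's quasi-likelihood F-test (version 4.0.16, R 4.3.3, filterByExpr defaults, TMM) in 1 fit of all 16 libraries with 12 residual degrees of freedom, with Benjamini-Hochberg adjustment over 15687 genes and a threshold of 0.05. CPM values are TMM-scaled. The script was tested on simulated data with 200 genes changed in Y220C MS78, far fewer than were called in the real libraries. It called 36 of 50 genes at 0.5-fold and 46 of 50 at 2-fold. At 0.667-fold and at 1.5-fold it called 34 of 50, so some changes of that size were missed. Of 15244 unchanged genes 3 were called. No 2 replicates agreed within sampling noise (chi-square per gene 2.53 to 11.2). A gene at 0 reads allows up to 3 reads, for counting error only.

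Same-numbered libraries of the 2 lines deviated together under MS78 (correlations of 0.15 to 0.531, over 0.1 in 4 of 4 pairs) and, in 3 of 4 pairs, under DMSO (-0.057 to 0.452), while across treatments correlations were -0.502 to 0.012. Unlike numbers also reached 0.215 under MS78 (Y220C MS78 2 with Null MS78 3), above the 0.15 of Y220C MS78 2 with Null MS78 2. The 0.531 was between replicate 1 of each line, the only MS78 libraries without PTPRC reads. So these values do not settle a pairing by number, and the labels do not give one. A fit with same-numbered libraries paired within each treatment was added after seeing the data.

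Alternatives were DESeq2 1.42.0, RLE size factors, no filter, at least 1 CPM in 4 libraries, length-scaled TPM, a replicate block, a term for libraries with PTPRC reads, fits within each such set, and leaving out each library. Members and lists were chosen with earlier results of these data known. All members may be named. From each list of other pathway genes, up to 4 per direction with the largest changes past the threshold at 1 CPM or more were eligible. Promoter sequences are from RefSeq and matched 36 of 46 members. Results of 2 genes are not reported here.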

Additional observations from a re-analysis of the deposited data

Results flagged for a closer look

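In 162 sets of 4 libraries (a member in a group, mean of at least 1 CPM), 10 held a library whose gap to its nearest neighbour exceeded Dixon's 95% critical value for 4 samples, which is 6.17% of the sets, where chance gives about 1 in 20. Null MS78 1 stood apart for 5 members: low for FBLN1 (64.7 CPM, others 68.2 to 68.9), LOXL2 (143 CPM, others 150 to 151) and ITGA3 (825 CPM, others 889 to 902), and high for ITGA2 (58.4 CPM, others 51.7 to 52.5) and SKIL (45.1 CPM, others 40.2 to 40.5). It is the only Null MS78 library without PTPRC reads. Null MS78 2 was high for THBS1 (21.2 CPM, others 18 to 18.2) and TGFBR2 (68.5 CPM, others 63.7 to 64.4). Y220C MS78 1, the only Y220C MS78 library without PTPRC reads, was low for THBS1 (14.8 CPM, others 17.7 to 18.3). MMP14 was high in Y220C DMSO 3 (78.2 CPM, others 76.9 to 77.1) and ITGB1 low in Y220C DMSO 2 (1038 CPM, others 1090 to 1098).

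For 18 members the response to MS78 differed between the lines by a test of the difference itself. As log2 values of p53-Y220C minus p53-null cells, the positive ones were CCN2 (0.98), SKIL (0.90), CCN1 (0.36) and THBS1 (0.35). The negative ones were MMP1 (-0.72), SERPINE2 (-0.50), PLAU (-0.46), VIM (-0.39), MMP14 (-0.37), ID1 (-0.36), TGFB2 (-0.32), COL6A1 (-0.29), ID3 (-0.29), PLAUR (-0.28), ITGA3 (-0.27), TGFBR2 (-0.27), COL6A2 (-0.23) and ITGB1 (-0.12). The last 2 and THBS1 had adjusted p-values of 0.0414, 0.0418 and 0.0305. The ITGB1 difference missed the threshold in 10 of the 16 fits that left out 1 library (adjusted p 0.0563 to 0.0967), those without Y220C MS78 1 or 2, Y220C DMSO 1, 3 or 4, Null MS78 1, 3 or 4, or Null DMSO 1 or 2.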

How the results depend on the processing

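Leaving out 1 library gave 6966 to 7647 genes called for MS78 in p53-Y220C cells (17 to 22 members), 3688 to 4587 in p53-null cells (19 to 25), 3685 to 4250 for the difference (15 to 19), 7270 to 7938 for the lines under DMSO (31 to 35) and 9238 to 9867 under MS78 (31 to 33). With the replicate block across all 4 groups 7442, 4251, 4060, 7774 and 9623 genes and 19, 24, 17, 33 and 32 members were called, in the same order, against 7611, 4402, 4197, 7875 and 9699 genes and 21, 24, 18, 34 and 32 members without it. With the replicate block within each treatment, chosen after seeing the data, 4607 genes and 20 members were called for the difference, 8201 and 34 for the lines under DMSO and 9943 and 32 under MS78, and beside the differences of TGFBI and CD44 it changed no member's call. Length-scaled TPM called 2839 genes and 15 members in p53-null cells and 2745 genes for the difference. Within libraries with PTPRC reads 2346 genes were called in p53-null cells, 3817 for the lines under DMSO, and 1870 with 11 members (5 positive, 6 negative) for the difference. Within libraries without them 3490 genes with 9 members (6 higher, 3 lower) were called in p53-Y220C cells, 1070 with 6 members in p53-null cells, 411 (300 positive, 111 negative) with 2 members for the difference, and 4184 for the lines under MS78. Those fits have 8 libraries, fewer than the 16 of the whole, and replicate 1 of each group stands alone in its set. For the lines, 1 library was set against 1 under DMSO with PTPRC reads and under MS78 without them. The values of 3 members reversed: CDH1 in p53-null cells (0.54) and between the lines under MS78 (-0.49) with length-scaled TPM, COL1A1 between the lines under DMSO within libraries with PTPRC reads (-0.13), and TGFBR1 between the lines under MS78 within those without (-0.06). The COL1A1 value sets Y220C DMSO 1 against Null DMSO 1 alone, and the TGFBR1 value sets Y220C MS78 1 against Null MS78 1 alone. The cause was not tested. Leaving out 1 library also brought these values past the threshold, beside those given with their genes: the differences of LAMB3 (0.19 without Null DMSO 4, adjusted p = 0.0188), TGFBI (0.24 to 0.26 without Y220C MS78 4, Y220C DMSO 3 or Null DMSO 2), CD44 (0.19 without Y220C MS78 4) and CDH1 (1.51 without Y220C DMSO 3), the lines under MS78 for COL5A1 (-1.44 to -1.25 without Y220C DMSO 3 or Null MS78 1), and the lines under DMSO for ITGB5 (-0.11 without Y220C DMSO 2) and SMAD7 (-0.37 to -0.27 without Y220C MS78 3, Y220C DMSO 2 or Null DMSO 4). Depth limits CDH1 and the collagen genes COL1A1, COL4A1, COL4A2, COL5A1 and COL5A2. COL1A1, CDH1 and the lung marker SFTPA1 had their most reads in Y220C DMSO 3 (101, 42 and 90). Among p53-null libraries they had their most in Null DMSO 1 (75, 32 and 15). Y220C MS78 4, with 50 reads of SFTPA1, had 22 of CDH1. Where these reads came from was not tested.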
